A study of Vigna radiata with 18 samples.

Results

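Chromosome 8 of mung bean (Vigna radiata) carried more sites of open leaf chromatin than any of the other 10 chromosomes. Its members are all consensus peaks that the deposited list places on chromosome 8, 8450 of 50238 peaks. They were taken by position alone, but chromosome 8 itself was picked for description with its large number of peaks already known, so that number is not a finding. The list holds a chromosome, a start and an end for each peak, and 0 of its 3 columns belong to a library.

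The study profiled leaves of wild-type plants of the cultivar Weilv 9 by ATAC-seq, an assay that uses the transposase Tn5 to cut and tag accessible DNA in isolated nuclei. The first fully expanded true leaf was sampled from 6 groups of 3 libraries, 18 libraries in all. Plants of T1 spent 24 h in 100 mM NaCl, recovered for 48 h without NaCl and then entered 100 mM NaCl again, and were sampled at 0, 6 and 48 h of that second bath. Plants of T2 entered 100 mM NaCl with no earlier exposure and were sampled at the same 3 times. The samples carry the cell type tag protoplast, whereas the protocol describes nuclei from frozen leaf, and no marker could be checked because the list has no expression values. The list gives one set of positions for the whole series, so it shows no difference between T1 and T2 or between times. Depth behind a peak is unknown. Peaks and chromosomes of one list are not replicates, so the values below are given without p-values, as a description of this list, and the order of chromosome 8 among the 11 chromosomes was not tested.

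Open chromatin in plants lies mostly at promoters and at distal regulatory elements, where bound proteins displace nucleosomes. Plant chromosomes commonly have a repeat-rich region around the centromere that is packed as heterochromatin and holds few genes, and arms that are richer in genes towards their ends. Sites in repeats are also harder to call, because short reads that map to many places are often discarded. No centromere position or gene annotation of the build of the list was used here, so a stretch without peaks is described by its position alone.

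Peaks on chromosome 8 were dense. Measured from base 1 up to where its last peak ends, the chromosome ran for 75.1 Mb, 15.1% of the summed length, and it held 16.8% of the peaks. That is 112 peaks per Mb, against 98.6 per Mb on the other 10 chromosomes pooled, 14.0% above them. At the pooled density of the others a chromosome of this length would hold 7410 peaks, which is 1040 fewer than were listed. All 10 others were less dense. Chromosome 5 was lowest with 76.8 per Mb and chromosome 11 highest with 110, and the others had a mean of 98.8 ± 11.5 (SD, n = 10 chromosomes). The gap to the next chromosome was thus much smaller than the gap to the pool, in which chromosomes 1 and 5 are sparse. Peaks covered 3.09 Mb or 4.11% of chromosome 8, against 3.53% of the other chromosomes pooled and at most 3.94% of any one of them, chromosome 11.

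Peak-free spans of 100 kb or more made up less of chromosome 8 than of any other chromosome. Gaps of 100 kb or more between neighbouring peaks numbered 10 and took up 3.49% of its length, against 9.77% of the other chromosomes pooled, where the share ran from 4.03% on chromosome 4 to 20.3% on chromosome 1. By other measures chromosome 8 was not the lowest: windows of 100 kb with no peak centre were 2.17% of its windows and 1.91% of those of chromosome 9, and gaps of 50 kb or more numbered 0.745 per Mb on chromosome 8 and 0.721 on chromosome 11. With the spans of 100 kb or more taken out of the length, chromosome 8 held 117 peaks per Mb and the others 109, a ratio of 1.06 in place of 1.14. Chromosome 11 (117.1 per Mb) and chromosome 2 (116.9) then stood slightly above chromosome 8 (116.5). Outside such spans chromosome 8 was thus the third densest and not the densest.

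Counts along the chromosome were even. Over its 75 full bins of 1 Mb the median was 113 peaks, the coefficient of variation was 0.223, and 73 bins held at least 56.5 peaks, 50% of that median. Each of the other 10 chromosomes had a larger coefficient of variation, 0.241 at the least (chromosome 3) and 0.532 at the most (chromosome 1). The other 2 bins were neighbours that met the longest span, and they held 9 and 15 peaks. Sparse bins, those under 50% of the median of their chromosome, made up 2.67% of chromosome 8, a median of 7.43% of the other chromosomes and 17.1% of chromosome 1. Chromosome 3 was the exception with a lower share, 2.22%. These shares depend on the length of the chromosome. In number, chromosomes 7, 8 and 11 had 2 sparse bins each and chromosomes 3 and 4 had 1 each.

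**Figure D1:**
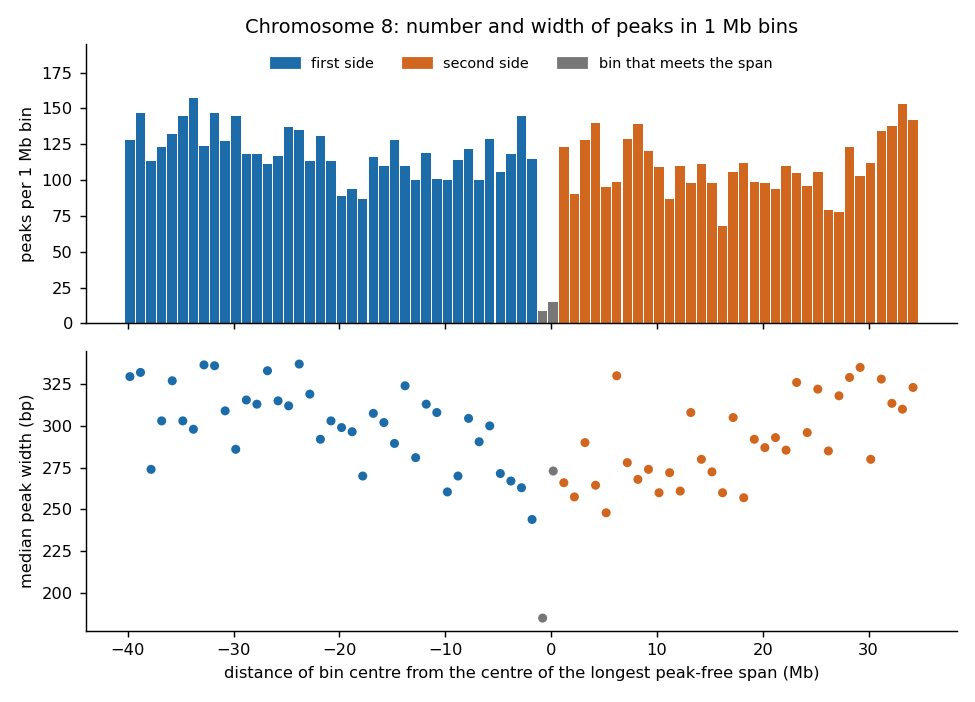
Number of peaks (upper panel) and median peak width in bp (lower panel) in each full 1 Mb bin of chromosome 8, by distance of the bin centre in Mb from the centre of the longest peak-free span, with the first side in blue, the second side in orange and the bins that meet the span in grey. Only the 2 grey bins, with 9 and 15 peaks, fall below 50% of the median of 113, and median widths are on average lower near the span, with single bins that depart from this (330 bp at 6.20 Mb on the second side).

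A span of 820 kb, the longest of chromosome 8 with no peak, lay at 39894373 to 40714529, in the coordinates of the list, with no genome build named in the sources used here. Its centre lay at 53.6% of the chromosome. The peak before it was 134 bp wide (39894239 to 39894372) and the peak after it 108 bp wide (40714530 to 40714637), both narrower than 201 bp, the lower quartile of the whole list. The longest spans of the other chromosomes had a median of 883 kb, with 260 kb on chromosome 9 as the lowest and 2522 kb on chromosome 1 as the highest, and 6 of the 10 exceeded that of chromosome 8.

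The span was the far end of a longer sparse stretch. From 38966675 to 40714529, a length of 1.75 Mb, there were 5 spans of 100 kb or more, separated by 9 peaks that covered 1926 bp or 0.110% of the stretch. These peaks lay in small groups. A group of 3 stood at 39115923 to 39126367 with widths of 207, 165 and 186 bp, and a pair at 39589454 to 39590561 with widths of 152 and 519 bp. The others stood at 39720718 (185 bp), 39762858 (215 bp), 39773755 (163 bp) and 39894239 (134 bp). Only the peak of 519 bp was wider than the chromosome's median of 294 bp, and the median of the 9 was 185 bp. A span of 149 kb lay before the group of 3. Spans of 463 kb, 130 kb and 120 kb followed in that order, and the longest came last.

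How chromosome 8 compared with the others in this respect depended on whether such scattered peaks were counted. The longest stretch that held no peak was 820 kb on chromosome 8, below the median of 883 kb of the others. With at most 5 peaks allowed it was 1130 kb on chromosome 8 against a median of 1065 kb, and 4 of the 10 others were longer. With at most 10 peaks allowed it was 1782 kb against 1204 kb, and 2 of the 10 others were longer, up to 3120 kb on chromosome 1.

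**Figure D2:**
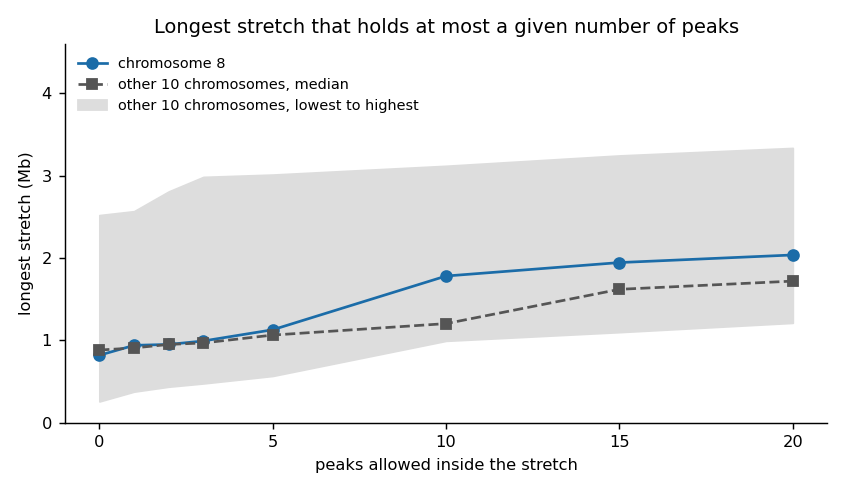
Length in Mb of the longest stretch that holds at most a given number of peaks, on chromosome 8 (blue circles) and on the other 10 chromosomes (dashed line, median, with the grey band from the lowest to the highest). Chromosome 8 lies below the median of the others with 0 peaks allowed (820 against 883 kb) and above it with 10 allowed (1782 against 1204 kb).

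Peak numbers near the span differed between its edges. Just before the sparse stretch, 1 Mb held 120 peaks with a median width of 253.5 bp, and the 1 Mb after it held 103 with a median width of 266 bp. The 100 kb next to it held 10 peaks before and 4 after, against a median of 11 in windows of 100 kb. In windows of 1 Mb moved outwards from the edges of the longest span in steps of 50 kb, the chromosome's median of 113 peaks was first reached 0.9 Mb away on the first side and 0.1 Mb away on the second. The zone between these windows, span included, was 1.82 Mb long. On the 9 other chromosomes where the median was reached on both sides it had a median length of 4.02 Mb, the shortest being 1.01 Mb (chromosome 9) and the longest 8.12 Mb (chromosome 7), and 7 of the 9 were longer than on chromosome 8. The first 1 Mb from the span held 15 peaks on the first side and 103 on the second, where the others had medians of 51.5 and 36.5. No other first side was lower, but the second sides of chromosomes 7 and 11 held 13 and 15. With both sides together chromosome 8 had 59 per Mb against a median of 61.25, and 4 of the 10 others were lower. Between 1 and 2 Mb from the span the first side held 125 peaks and the second 85, so the second side fell below 113 again. Between 2 and 5 Mb from the span chromosome 8 held 123 peaks per Mb, against a median of 110 per Mb on the others, where only chromosome 10 was higher (126 per Mb). Relative to the density of its own chromosome the order was the opposite farther out: between 10 and 20 Mb chromosome 8 had 90.3% of its mean density, below each of the other 10, whose median was 104%. In peaks per Mb the values there were nearly equal, 101.6 on chromosome 8 and a median of 102.0 on the others. Unlike parts are compared, because this class reached both ends of chromosomes 2, 4 and 9, whose sides are shorter than 20 Mb, but neither end of chromosome 8.

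**Figure D3:**
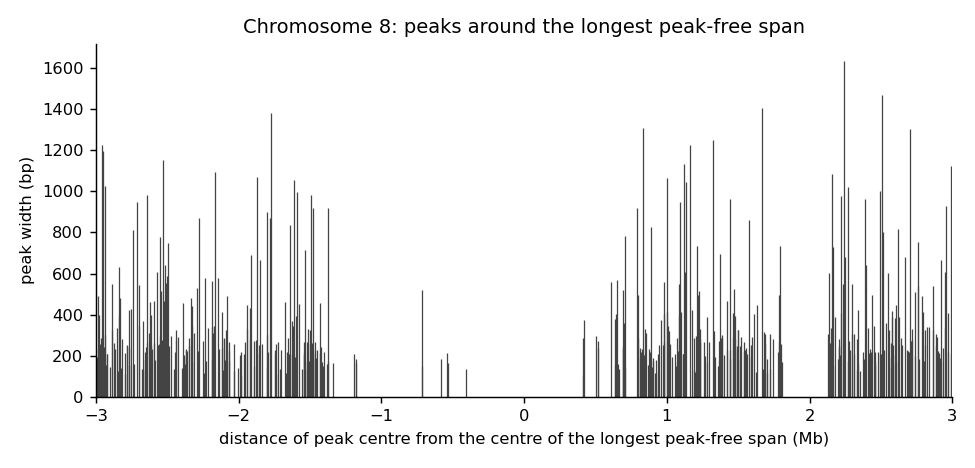
Each line is a peak of chromosome 8 within 3 Mb of the centre of the longest peak-free span, at its distance in Mb and with its width in bp as height. The 9 peaks of the sparse stretch stand left of the centre, all but 1 under 294 bp wide, and peaks over 1000 bp wide stand on both sides outside it.

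The span divided the chromosome into a first side, from base 1 to the span, of 39.9 Mb with 4693 peaks, and a second side, from the span to the last peak, of 34.4 Mb with 3757 peaks. The first side held 118 peaks per Mb and the second 109, a ratio of 1.08. Peaks covered 4.38% of the first side and 3.90% of the second. Each side of chromosome 8 was thus denser than the pooled 98.6 per Mb of the other chromosomes. Like is not compared with like there, because the pooled length includes the longest spans and the sides leave them out. Among first sides, chromosome 2 was denser (121 per Mb). Among second sides, chromosomes 6 (116.8 per Mb) and 10 (109.8) exceeded the 109.2 of chromosome 8. In peaks per Mb the ratio of first to second side was farther from 1 on each of the other 10 chromosomes. It was 1.09 on chromosome 5, the nearest, 0.599 on chromosome 1 and 1.31 on chromosome 7, and 4.77 on chromosome 11, whose second side is only 1.95 Mb long. By the share covered, the sides of chromosome 5 (2.69% and 2.59%) were closer than those of chromosome 8. With chromosome 8 split at the middle of its length instead, its ratio of densities was 1.14. The first side was the denser one on chromosome 8 and on 6 of the 10 others.

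**Figure D4:**
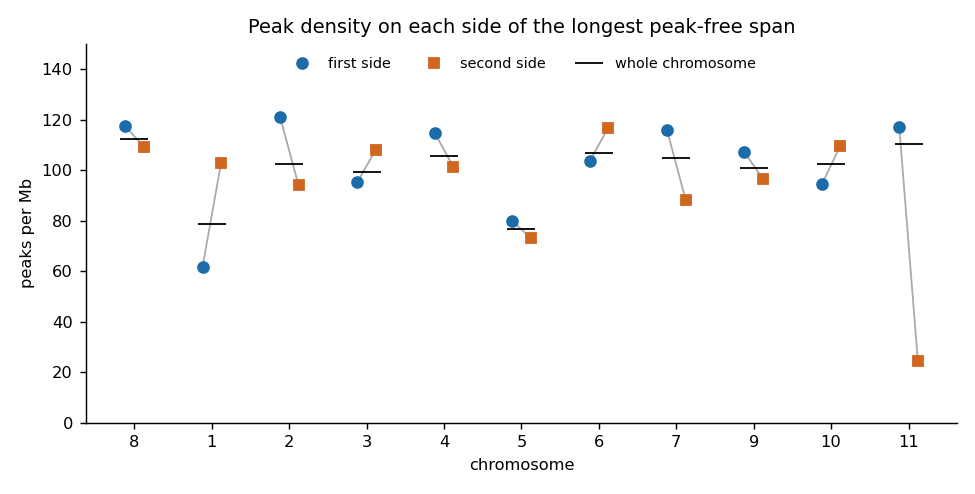
Peaks per Mb on the first side (blue circles) and the second side (orange squares) of the longest peak-free span of each chromosome, with the density of the whole chromosome as a black bar and chromosome 8 at the left. Both sides of chromosome 8 (118 and 109 per Mb) lie above the pooled 98.6 per Mb of the other chromosomes, whose length includes their longest spans. The first side of chromosome 2 and the second sides of chromosomes 6 and 10 lie higher than the same side of chromosome 8.

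Single bins showed where the sides differed. The 39 full bins of the first side held 87 to 157 peaks with a median of 118, and the 34 of the second side held 68 to 153 with a median of 107.5. Bins under 100 peaks numbered 3 on the first side and 13 on the second. On the first side these 3 were neighbours, at 20000001 to 21000000 (89 peaks), 21000001 to 22000000 (94) and 22000001 to 23000000 (87). The sparsest of the second side were at 56000001 to 57000000 (68 peaks), 67000001 to 68000000 (78) and 66000001 to 67000000 (79). The first side also had 3 bins with exactly 100 peaks, at 27, 30 and 33 Mb, so how far its low bins were gathered in one place depends on the limit. The densest bins of the first side were at 6000001 to 7000000 (157 peaks), 1000001 to 2000000 (147) and 8000001 to 9000000 (147). On the second side they were at 73000001 to 74000000 (153), 74000001 to 75000000 (142) and 44000001 to 45000000 (140), the last of these only 4.20 Mb from the centre of the span.

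Both ends of chromosome 8 were rich in peaks. The first 5 Mb held 643 peaks or 129 per Mb and the last 5 Mb held 669 or 134 per Mb, each with a median width of 311 bp. Such ends were not particular to chromosome 8. Its outer 5 Mb at both ends together held 1312 peaks, against 1302 on chromosome 6 and 1288 on chromosome 7. The remaining chromosomes held from 929 (chromosome 9) to 1180 (chromosome 2). The outermost 1 Mb held 128 peaks at the start and 129 at the end. The first peak stood at 6063 to 6445 (383 bp) and the last at 75127264 to 75127516 (253 bp). In stretches of 5 Mb the rich end was shorter on the second side than on the first. The stretch from 65 to 70 Mb had 97.8 peaks per Mb and that from 70 to 75 Mb had 136. The first side held 122 to 140 per Mb in each of its stretches of 5 Mb out to 20 Mb. Its stretch from 20 to 25 Mb had 99.2 per Mb. In bins of 1 Mb the rise on the second side was uneven and spread over several bins. From 67000001 to 75000000 they held 78, 123, 103, 112, 134, 138, 153 and 142 peaks.

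Most peaks were short, and their widths were close to those of the rest of the list. The median was 294 bp on chromosome 8 (quartiles 205 and 457 bp), against 291 bp on the others (200 and 445 bp). Chromosome 5 had the lowest median of the others (279 bp) and chromosome 7 the highest (299.5 bp), so chromosome 8 was inside their range. The mean was 365 bp ± 232 (SD over peaks) with a range of 105 to 2138 bp. Split at the quartiles of the whole list, the widest class (over 447 bp) held 29.1 peaks per Mb on chromosome 8 against 24.4 on the others, a ratio of 1.19, and the narrowest class (up to 201 bp) held 26.8 against 25.2, a ratio of 1.06. The higher density of chromosome 8 was thus present in each class of width (ratios 1.06 to 1.20) and was smallest among the narrowest peaks.

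Width differed along the chromosome. The median width was 272 bp within 10 Mb of the longest span and 309.5 bp more than 20 Mb away from it, a difference of -37.5 bp. The difference held on each side: the ratio of the near to the far median was 0.869 on the first side and 0.890 on the second. In steps of 5 Mb away from the span, medians on the first side were 260, 289.5, 306, 295, 303, 314.5, 316 and 312 bp. On the second side they were 265.5, 278.5, 278, 279, 297, 308.5 and 315 bp. The median climbed within 15 Mb on the first side, whereas on the second it stayed under 280 bp out to 20 Mb. Of the 7 other chromosomes with enough peaks beyond 20 Mb, each had the narrower median near its own span. The differences had a median of -27 bp, with -3 bp on chromosome 5 and -75 bp on chromosome 1 at the extremes, so chromosome 8 lay inside their range. The value of chromosome 1 rested on 161 peaks beyond 20 Mb, and the next was -38 bp on chromosome 10, close to chromosome 8. Against the outer 5 Mb at both ends the difference was -39 bp on chromosome 8. Of the 10 others, 9 were also narrower near the span, and only chromosome 1 had a lower value (-41 bp). Chromosome 5 went the other way (3 bp).

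Density and width did not always go together on chromosome 8. Between 5 and 10 Mb from the span the second side held 121 peaks per Mb with a median width of 278.5 bp, and between 25 and 30 Mb it held 100.0 per Mb with a median width of 308.5 bp. Of these stretches the denser one had the narrower peaks. Between 30 and 35 Mb the order was the opposite on both sides: the first side had 139 per Mb with a median of 316 bp and the second 138 per Mb with 315 bp, the densest stretch and the widest median of each side.

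Peaks of 1 kb or more did not follow the gradient of the median. Chromosome 8 held 224 of them, 2.65% of its peaks, against 2.24% on the other chromosomes (937 peaks). Within 5 Mb of the longest span they were 40 of 1067 peaks or 3.75%, and on the rest of the chromosome 184 of 7383 or 2.49%, a difference of 1.26 percentage points. The median width was lower in the same place, 263 bp within 5 Mb and 300 bp elsewhere. Near the span a lower median thus went with a larger share of very wide peaks. They stood on both sides, 20 on each, and the nearest was 0.424 Mb from the span at 41137468 to 41138776 (1309 bp). The widest of the 40 was 1654 bp, at 35138905 to 35140558. With a limit of 1200 bp in place of 1000 bp the difference shrank to 0.190 points. The excess at 1000 bp thus came mainly from peaks between these limits. At the lower limit tried, under 1000 bp, the difference was larger, 1.88 points, so peaks just under 1000 bp added to it. With the limit of 1000 bp, and 10 Mb in place of 5 Mb, the difference was 0.529 points. The share was 3.04% within 10 Mb, 1.67% at 10 to 20 Mb and 2.92% beyond 20 Mb, so it was lowest at middle distances and also high where medians were widest. Of the other 10 chromosomes, 7 also had the higher share near their own span, by up to 2.01 points on chromosome 7.

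The 5 widest peaks of chromosome 8 stood elsewhere, on the first side. The widest measured 2138 bp (8250803 to 8252940) and the next 1939 bp (83193 to 85131). Then came widths of 1917 bp (15188775 to 15190691), 1898 bp (8086646 to 8088543) and 1844 bp (21877123 to 21878966). The peaks of 2138 and 1898 bp lay in the bin from 8000001 to 9000000, which is among the 3 densest of that side. The peak of 1844 bp lay in the bin from 21000001 to 22000000, which is among the 3 sparsest. Gaps between these 5 peaks and their neighbours were 4.73 to 35.1 kb long, and none was part of a cluster.

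Neighbouring peaks of chromosome 8 were separated by a median of 5.66 kb, with quartiles of 2.25 and 11.0 kb. On the other chromosomes pooled the median was 5.80 kb, with quartiles of 2.14 and 11.8 kb. Chromosome 8 had the smallest upper quartile of the 11 chromosomes, while 2 of the others had a smaller median, the smallest 5321 bp on chromosome 2. Gaps of 2 to 10 kb were more frequent on chromosome 8: 22.1% of gaps were 2 to 5 kb and 26.5% were 5 to 10 kb, against 20.8% and 25.1% on the others. The tails differed: gaps under 0.7 kb made up 9.82% on chromosome 8 and 9.74% on the others, whereas gaps of 50 kb or more made up 0.663% and 1.35%.

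The sides differed more at the extremes of spacing than at its middle. Median gaps were close, 5.54 kb on the first side and 5.74 kb on the second. Gaps under 0.7 kb made up 10.6% of the first side (499 gaps) and 8.81% of the second (331 gaps). Gaps of 50 kb or more numbered 17 on the first side and 38 on the second, or 0.426 and 1.10 per Mb, a ratio of 0.386. The first side thus had the larger share of close neighbours and, at this limit, fewer long gaps. At a limit of 100 kb the numbers were 5 on the first side and 4 on the second. Of those 5, however, 4 lay in the sparse stretch next to the longest span. Farther than 10 Mb from the longest span, gaps of 50 kb or more numbered 11 in 29.9 Mb of the first side and 29 in 24.4 Mb of the second. The contrast at 50 kb was thus also present away from the span. With a limit of 75 kb the ratio was 0.518, and with 30 kb it was 0.818, nearer to 1.

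**Figure D5:**
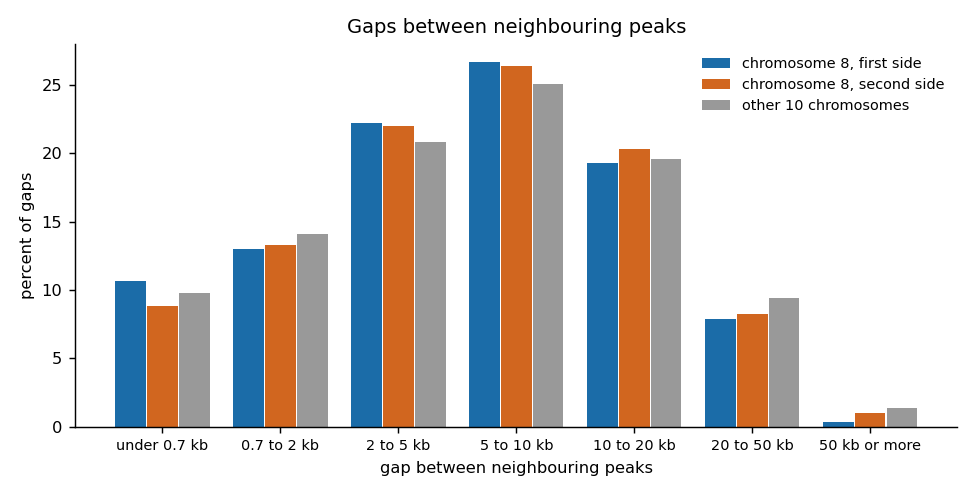
Percent of gaps between neighbouring peaks in 7 classes of length, for the first side (blue) and second side (orange) of chromosome 8 and for the other 10 chromosomes pooled (grey). Gaps of 50 kb or more are 0.362% on the first side, 1.01% on the second and 1.35% on the others.

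Spans of 100 kb or more were scattered on the second side, whereas on the first side most of them lay together. On the first side the 3 longest after the 820 kb span were 463 kb (39126368 to 39589453), 177 kb (30745550 to 30922829) and 149 kb (38966675 to 39115922). Of its 5 spans of 100 kb or more, 4 belonged to the sparse stretch and the 177 kb span lay 8.97 Mb away. Spans of 50 to 100 kb were spread along the first side, the farthest 37.2 Mb away. On the second side the 3 longest were 327 kb (42109415 to 42435962), 208 kb (46622424 to 46830131) and 128 kb (61715057 to 61842661), at 1.39, 5.91 and 21.0 Mb from the longest span. One more, of 102 kb, stood at 50962108 to 51064175. Past the end of the sparse stretch, on the second side, the next spans of 50 kb or more were 83.4, 86.9 and 81.3 kb long. They began 0.0119, 0.111 and 0.299 Mb beyond the longest span.

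Clusters, runs of 3 or more peaks with each gap under 700 bp, numbered 87 on chromosome 8 and held 270 peaks, 3.20% of its members. Other chromosomes had 0.579 to 1.42 clusters per Mb, and chromosome 8 had 1.16. The first side held 60 clusters or 1.50 per Mb and the second side 27 or 0.785 per Mb, a ratio of 1.92. The first side exceeded the second in this respect by more than in density, where the ratio was 1.08. The ratio was 3.22 with gaps under 500 bp and 1.46 with gaps under 1000 bp. No cluster exceeded 4 peaks, the same limit as on chromosomes 1, 2, 9 and 10, whereas the remaining chromosomes reached 5. Of the 9 clusters of 4, 6 were on the first side, the earliest at 62074 to 64039, with 1223 bp covered in 1966 bp. The longest, 3234 bp, was on the second side at 59439802 to 59443035 and held a peak of 1124 bp.

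The closest neighbours of the chromosome stood 1 bp apart, at 3824177 to 3824506 (330 bp) and 3824508 to 3825203 (696 bp), and 8 gaps in all were under 100 bp. At the other extreme, 82 peaks had no neighbour within 20 kb on either side, 0.970% of the members, against a median of 1.52% on the other chromosomes. These isolated peaks had a median width of 265.5 bp, and the peaks in clusters one of 286 bp.

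The densest window of 100 kb on the first side was at 6310001 to 6410000 and held 29 peaks, which covered 11.3 kb. Its peaks had a median width of 321 bp, the widest was 1160 bp, and 8 of its 28 gaps were under 700 bp. The densest on the second side, at 73960001 to 74060000, held 24 peaks over 8.57 kb, with a median width of 304 bp and a widest peak of 838 bp. Windows of chromosome 8 had a median of 11 peaks, and 95% held at most 18. The first window lay in the densest bin of 1 Mb of its side, and the second lay across the border between the densest bins of the second side. Chromosome 11 reached 51 peaks in such a window and chromosome 4 reached 48, so the high density of chromosome 8 did not come with the richest single window of the list.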

How the data were processed

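The submitters' processing notes name MACS3 3.0.3 and bedtools 2.28.0, besides fastp 1.0.1, SAMtools 1.22.1, deepTools 3.5.6, featureCounts 2.1.1, edgeR 4.0, R 4.4.3 and Bowtie2, with no role for any of them. The peak threshold, the handling of duplicate and multiply mapped reads and the build are not stated there. The authors deposited one list of consensus intervals with no score, so depth per library is unknown. A stricter threshold would shorten the list, and discarding multiply mapped reads could leave fewer peaks in repeats. Neither effect was tested here.

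SciPy 1.17.1, pandas 2.3.3 and numpy 2.4.6 were used under Python 3.11.15. Starts are printed counted from 1. The length of a chromosome is the end of its last peak. A peak belonged to the bin or window that held its centre. Sides were split at the longest peak-free span, and only full bins lying wholly on one side were compared. The sparse stretch joined the longest span to spans of 100 kb or more within 20 peaks of it. Regions were named by rule: the longest spans, the densest and sparsest bins and windows of each side, the widest peaks and the ends. Sparse-stretch peaks, wide peaks near the span, clusters, the bins that met the span and the closest pair were named after their values were seen. The members and the limits were chosen with earlier results of these data known. Simulated intervals tested the length of the longest span, the ratio of the sides, sums over bins and sides, and the joining of close peaks. They did not test clusters, widths by distance from the span or stretches with peaks allowed.

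The gene table at hand is of the VC1973A assembly, whose last gene on chromosome 8 ends at 45719172, and 3198 peaks lie past it. It was not joined to the list, and no sequence or gene is given for this reason.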

Additional observations from a re-analysis of the deposited data

How the results depend on the processing

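With no library values there is no test, and an alternative counts as a move where it leaves the exact 95% binomial interval of the value (for medians, of their rank) or, for a count, exceeds 1.5 times. These intervals treat peaks as independent and only serve as a scale. Of 48 alternatives for 13 results, 34 stayed within it, 14 moved and 0 reversed, and 20 of the 48 were chosen after seeing the data. A reversal was defined only for the ratios and the difference in share of wide peaks. Peak number, density, median width, median gap, longest span, number of spans and share of sparse bins could therefore not reverse. Leaving out the narrowest 25% of peaks gave a density of 86.0 per Mb, a median width of 353 bp and a median gap of 7309 bp, as fewer peaks must. Taking out spans of 100 kb or more gave 117 per Mb and a ratio to the other chromosomes of 1.06. That ratio was 1.10 against the median of the other densities and 1.08 without chromosomes 1 and 5. Splitting at the middle of the chromosome gave a ratio of first to second side of 1.14. Spans numbered 56 at a limit of 50 kb and 4 at 200 kb, and sparse bins made up 0% in bins of 2 Mb. The excess of wide peaks near the span was 0.190 points at a limit of 1200 bp. The ratio of clusters was 3.22 for gaps under 500 bp, and that of long gaps 0.818 at a limit of 30 kb. No paired analysis was possible because positions are not split by library, and no replicate could be left out for the same reason. The depth over stretches with no peak was not tested, as the intervals carry none.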
